A study of Homo sapiens with 10 samples.

Results

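The 8 genes described here are 3 Notch receptors (NOTCH1, NOTCH2 and NOTCH3), the Notch ligand JAG1 and 4 HES and HEY genes (HES1, HES4, HEY1 and HEYL), out of 28380 genes with at least 1 read in the count table. They were chosen by name as genes of 1 pathway, with earlier results of these data known. The cells were RPE-1, a single established line of human retinal pigment epithelial cells immortalized with telomerase. 5 samples were treated with sulforaphane (SFN), an isothiocyanate from cruciferous vegetables, and 5 with the vehicle DMSO alone, both for 4 h. RNA was sequenced from the 3′ ends of transcripts, an assay in which each transcript is read near its end whatever its length. Whether the numbered replicates came from separate cultures is not given in the sources used here, and p-values measure only the spread between these samples, which may be technical.

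Notch receptors are single-pass membrane proteins that are activated by ligands such as JAG1 on a neighbouring cell. Ligand binding exposes the receptor to cleavage by ADAM proteases and then by γ-secretase, and the intracellular domain that is released enters the nucleus, where it joins the DNA-binding protein RBPJ and a Mastermind-like (MAML) coactivator. HES and HEY genes are among the best known direct targets of this complex, and they encode basic helix-loop-helix repressors of transcription. The HES repressors recruit TLE corepressors. HES1 is also known to repress its own promoter, and it is induced by other pathways as well.

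The promoters of HES1 and HES4 are shown because these related genes carry the same RBPJ core sequence at nearly the same place before their RefSeq starts. The promoter of JAG1 is shown because this gene fell with SFN. Each window holds the 250 bases before the gene's start in RefSeq (GRCh38.p14), 5′ to 3′ on the strand of the gene, and capitals mark the RBPJ core GTGGGAA. The HES1 window is chr3:194135898-194136147 on the plus strand, and the HES4 (chr1:1000098-1000347) and JAG1 (chr20:10674000-10674249) windows are on the minus strand.
HES1: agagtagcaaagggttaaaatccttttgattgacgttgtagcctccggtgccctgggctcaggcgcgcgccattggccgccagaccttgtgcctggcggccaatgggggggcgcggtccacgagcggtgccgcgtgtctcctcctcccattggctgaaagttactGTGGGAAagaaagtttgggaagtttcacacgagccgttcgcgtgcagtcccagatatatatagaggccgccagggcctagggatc
HES4: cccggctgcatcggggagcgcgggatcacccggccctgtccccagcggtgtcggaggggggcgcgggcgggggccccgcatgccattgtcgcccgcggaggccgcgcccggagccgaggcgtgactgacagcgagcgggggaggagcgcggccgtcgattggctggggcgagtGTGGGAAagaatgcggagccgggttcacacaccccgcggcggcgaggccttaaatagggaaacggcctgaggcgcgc
JAG1: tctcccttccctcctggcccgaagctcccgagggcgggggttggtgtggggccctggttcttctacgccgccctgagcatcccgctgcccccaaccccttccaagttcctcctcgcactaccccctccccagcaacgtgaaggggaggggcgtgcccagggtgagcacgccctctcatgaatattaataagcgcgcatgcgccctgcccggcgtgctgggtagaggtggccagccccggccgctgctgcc
In HES1 the core lay between 85 and 79 bases before the start, and in HES4 between 77 and 71 bases. By the GENCODE annotation the HES4 gene starts at chr1:1000172, inside its window, so the place of its core depends on the annotation. 7 of the 8 genes had a window in the RefSeq table, and HEY1 was the gene without one. Searched on both strands (TTCCCAC is the reverse complement), the core was also in the HEYL window, 178 to 172 bases before the start on the opposite strand, and it was in none of the windows of NOTCH1, NOTCH2, NOTCH3 and JAG1. Among all 35116 windows of the same length, 5.43% held it. The N-box CACNAG (reverse complement CTNGTG), a sequence bound by HES repressors, was found 3 times in the HES1 window and once in that of NOTCH3, against a share of 32% of all windows with at least 1 match. These matches are descriptions of letters and not measured binding.

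The libraries held 15689294 to 20666692 counts in DMSO and 12375860 to 17308706 counts in SFN. DMSO replicate 1 stood apart from the other libraries, with a mean Spearman correlation across genes of 0.935 with the other DMSO replicates, where those had 0.979 to 0.982. The slope of log2 CPM against log2 transcript length, relative to the mean of all libraries, was -0.271 in DMSO replicate 1, 0.0872 to 0.148 in the other DMSO replicates and -0.183 to 0.109 in SFN. Fold changes and counts of genes past the threshold are therefore also given without this library. Of 14 retinal pigment epithelium markers, only BEST1, MITF, OTX2, KRT8 and KRT18 reached at least 1 CPM (counts scaled by TMM to a common library size) in every library. The visual cycle genes RPE65 and RLBP1 had at most 4 counts in any library. TYRP1, TTR and SERPINF1 had at most 2 counts, LRAT at most 12 and PMEL at most 29, and TYR and DCT were not in the count table. Markers of photoreceptors, endothelium and blood summed to at most 1.43 CPM in any library, and of 3 neuronal markers only SYT1 reached 1 CPM in every library.

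Over all 10 libraries, 1 of the 8 genes was significantly higher with SFN (HEY1) and 1 was lower (JAG1) by edgeR's quasi-likelihood test, with an adjusted p under 0.05 over all 13378 genes tested. 6 of the 8 genes had enough counts to be tested. Across all tested genes 9.07% were higher and 13.9% were lower, so 1 of 6 in each direction was close to the background. Without DMSO replicate 1, HES1 and HEY1 were higher and NOTCH1, NOTCH2 and JAG1 were lower, against 22.5% higher and 23.5% lower among all genes in that fit. NOTCH3 was also called higher there, but it entered that fit only through the SFN libraries in which it was high, and its call is not counted as support. In bulk RNA, fewer cells that express a gene and less of its RNA per cell cannot be told apart.

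**Figure D1:**
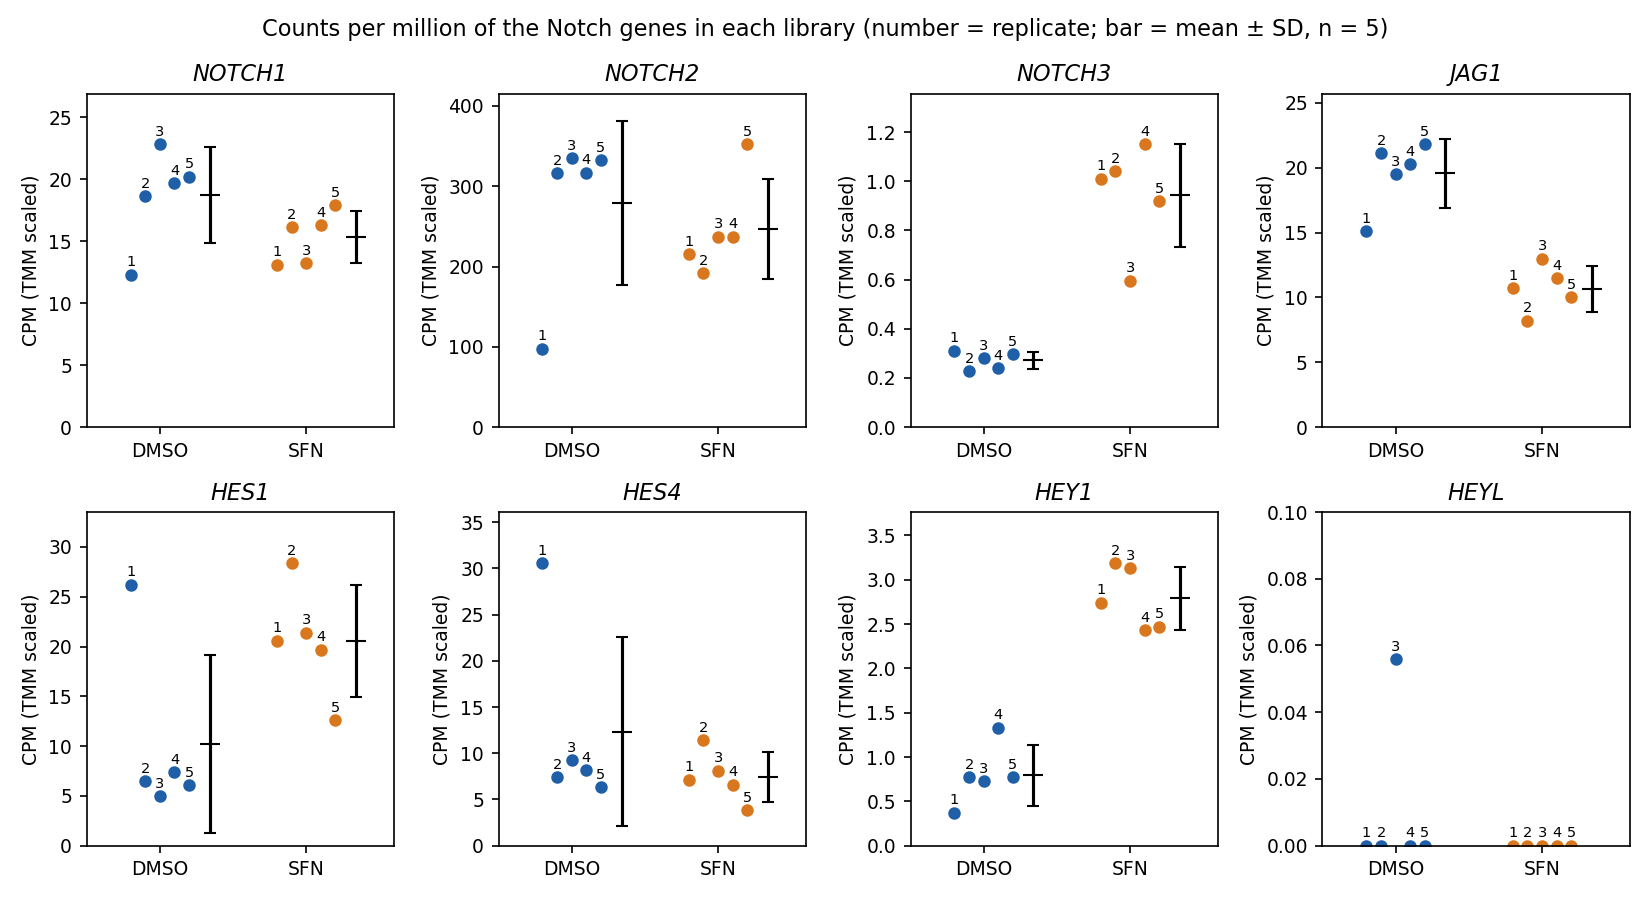
TMM-scaled counts (CPM) of the 8 genes in each library, with DMSO in blue and SFN in orange; the number above a point is the replicate and the bar is the mean ± SD (n = 5, not drawn for HEYL). JAG1 is lower and NOTCH3 and HEY1 are higher in every SFN library than in any DMSO library, and DMSO replicate 1 lies far from the other DMSO replicates for NOTCH2, HES1 and HES4.

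Neither NOTCH1 nor NOTCH2 passed the test over all libraries, and both were lower when DMSO replicate 1 was left out. NOTCH1 (ENSG00000148400, GRCh38 chr9:136494433-136546048, minus strand, 34 exons) had 12.3, 18.6, 22.8, 19.7 and 20.2 CPM in DMSO replicates 1 to 5 and 13.1, 16.1, 13.2, 16.3 and 17.9 CPM in SFN replicates 1 to 5. Its lowest value was in DMSO replicate 1, and the other 4 DMSO replicates were above all SFN replicates. The mean was 18.7 ± 3.88 CPM in DMSO and 15.3 ± 2.11 CPM in SFN (SD, n = 5), a log2 fold change of -0.29 (SE 0.17, adjusted p = 0.25 by edgeR). Without DMSO replicate 1 the log2 fold change was -0.41 (SE 0.12, adjusted p = 0.011 by the same test).

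NOTCH2 (ENSG00000134250, chr1:119911553-120100779, minus strand, 34 exons) had 97.8 CPM in DMSO replicate 1 and 316, 335, 317 and 332 CPM in DMSO replicates 2 to 5. SFN replicates 1 to 5 had 215, 192, 237, 237 and 352 CPM. The other 4 DMSO replicates lay close together, DMSO replicate 1 was below every SFN replicate, and SFN replicate 5 was above every DMSO replicate. The log2 fold change was -0.18 over all libraries (SE 0.29, adjusted p = 0.72 by edgeR) and -0.40 without DMSO replicate 1 (SE 0.14, adjusted p = 0.029 by edgeR), and the groups overlapped in both cases. DMSO replicate 1 was 1.73 log2 units below the mean of the other DMSO replicates for NOTCH2, and the canonical transcript of this gene is 11425 bases long. The human-specific NOTCH2NL genes are near copies of the first part of NOTCH2, and how reads that match both were counted is not stated. NOTCH2NLA was the only one of the 4 that was in the count table, with 24 to 89 counts per library, against 1571 to 6938 for NOTCH2.

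NOTCH3 (ENSG00000074181, chr19:15159038-15200995, minus strand) was read rarely but differed between the groups. It had 5, 5, 5, 4 and 5 counts in DMSO replicates 1 to 5 and 17, 12, 8, 17 and 13 counts in SFN replicates 1 to 5. Every SFN library was above every DMSO library, as counts and as CPM (0.271 ± 0.0357 in DMSO and 0.942 ± 0.210 in SFN). The low-count filter needed 0.637 CPM in at least 5 libraries, and NOTCH3 reached it in 4 SFN and 0 DMSO libraries, so it had no test in the filtered fit. Without the filter, its log2 fold change was 1.77 (SE 0.43, adjusted p = 0.0093 by edgeR over 28380 genes), in a fit that called 4.00% of genes higher. An exact two-sided permutation test of its log2 CPM gave p = 0.0079, the smallest that 5 against 5 samples allow. The log2 fold change without DMSO replicate 1 was 1.83 (SE 0.35), in a filtered fit that it entered through the SFN libraries alone, so no p is given.

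JAG1 (ENSG00000101384, chr20:10637684-10673999, minus strand), which encodes a transmembrane ligand of the receptors, fell 1.83-fold with SFN. DMSO replicates 1 to 5 had 15.1, 21.1, 19.5, 20.3 and 21.8 CPM, and SFN replicates 1 to 5 had 10.7, 8.20, 13, 11.5 and 10 CPM. All SFN values were below all DMSO values, DMSO replicate 1 included. Among all tested genes, 11.1% were lower with no overlap between the groups and 8.78% were higher in this way. The mean decreased from 19.6 ± 2.61 to 10.7 ± 1.76 CPM, with a log2 fold change of -0.87 (SE 0.15, adjusted p = 0.0012 by edgeR) and of -0.95 (SE 0.12, adjusted p = 3.4e-05 by edgeR) without DMSO replicate 1. An antisense gene that overlaps the first part of JAG1 had at most 3 counts in any library, and one that overlaps NOTCH2 had at most 1. Whether counting used the strand is not stated.

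HES1 (ENSG00000114315, chr3:194136148-194138732, plus strand), the effector whose promoter is printed first, had 26.2 CPM in DMSO replicate 1 but 6.47, 4.98, 7.35 and 6.10 CPM in DMSO replicates 2 to 5. SFN replicates 1 to 5 had 20.6, 28.4, 21.4, 19.7 and 12.6 CPM. The 4 lower DMSO replicates were below all SFN replicates, and DMSO replicate 1 was above 4 of the 5. Over all libraries the log2 fold change was 1.01 (SE 0.43, adjusted p = 0.12 by edgeR). Without DMSO replicate 1 it was 1.71 (SE 0.20, adjusted p = 1.2e-05 by edgeR), which is 3.27-fold, and the groups no longer overlapped. The value of HES1 in DMSO replicate 1 was 2.06 log2 units above the mean of the other DMSO replicates. By this test with group alone in the model, HES1 passed the threshold only when that library was left out. On all 10 libraries, edgeR with the replicate number added to the model gave a log2 fold change of 1.27 (adjusted p = 0.038). Limma-voom on all 10 libraries gave 1.28 (adjusted p = 0.030), so the call depends on the model and the test as well as on that library.

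HES4 (ENSG00000188290, chr1:998962-1000172, minus strand), a close relative of HES1 that mice lack, showed the same displacement of DMSO replicate 1, and its difference between the groups did not pass the test. It had 30.6 CPM in DMSO replicate 1 and 7.43, 9.22, 8.19 and 6.33 CPM in DMSO replicates 2 to 5. SFN replicates 1 to 5 had 7.15, 11.4, 8.12, 6.61 and 3.81 CPM. The ranges of the other DMSO replicates and of SFN overlapped, with the SFN values spread more widely. The log2 fold change was -0.74 (SE 0.44, adjusted p = 0.27 by edgeR), and -0.09 without DMSO replicate 1 (SE 0.23, adjusted p = 0.78 by edgeR). DMSO replicate 1 was 1.97 log2 units above the other DMSO replicates for HES4. The canonical transcripts of HES1 and HES4 are 1575 and 885 bases long, the shortest among the 8 genes, and the part of transcript length in these values was not tested.

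HEY1 (ENSG00000164683, chr8:79762371-79767857, minus strand), a repressor known for its roles in heart and vessel development, rose 3.49-fold with SFN from a low level. DMSO replicates 1 to 5 had 6, 17, 13, 22 and 13 counts, and SFN replicates 1 to 5 had 46, 37, 42, 36 and 35 counts. All SFN libraries were above all DMSO libraries, and the lowest value was in DMSO replicate 1. The mean was 0.794 ± 0.341 CPM in DMSO and 2.79 ± 0.357 CPM in SFN, with a log2 fold change of 1.80 (SE 0.28, adjusted p = 7.4e-04 by edgeR). Without DMSO replicate 1 the log2 fold change was 1.63 (SE 0.25, adjusted p = 1.4e-04 by edgeR). HEY1 reached the low-count filter in 4 DMSO and 5 SFN libraries, and without the filter its log2 fold change was 1.79 (SE 0.32, adjusted p = 6.3e-04 by edgeR). HEYL (ENSG00000163909, chr1:39623435-39639643, minus strand), its relative with an RBPJ core in the promoter window, had 1 count in DMSO replicate 3 and 0 counts in the other 9 libraries. It was not tested, and a count of 0 allows up to 3 counts per library, or between 0.137 and 0.258 CPM, by counting error alone.

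**Figure D2:**
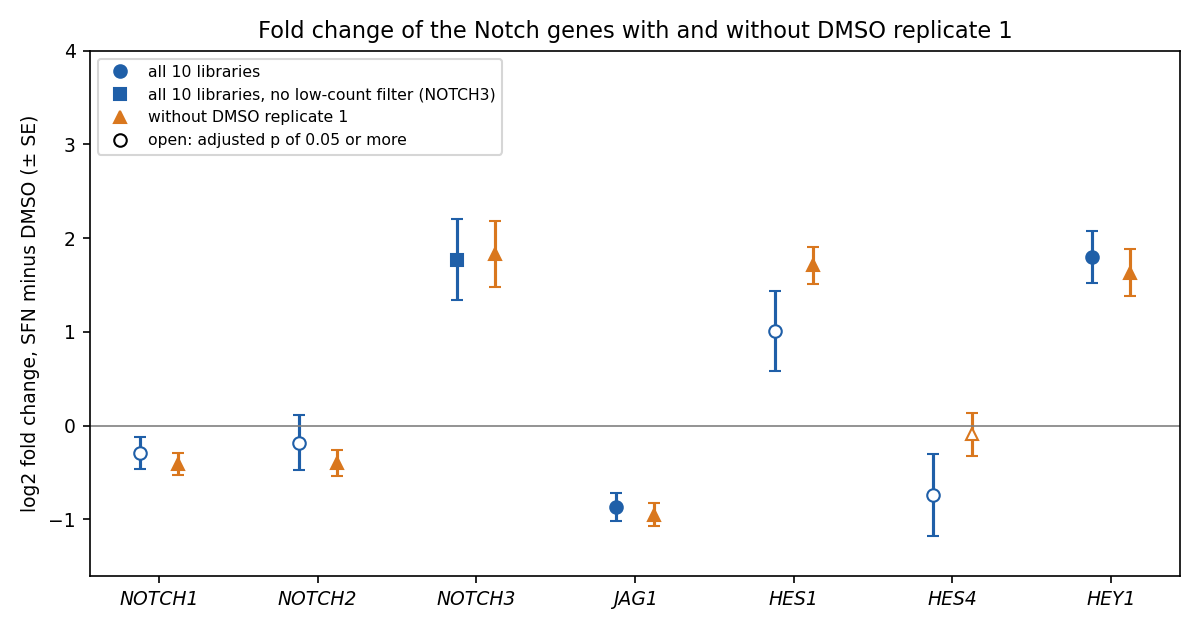
Log2 fold change of SFN against DMSO (± SE) for the 7 genes with an estimate, over all 10 libraries in blue and without DMSO replicate 1 in orange; open symbols have an adjusted p of 0.05 or more, and the square marks the fit of NOTCH3 without the low-count filter. JAG1 and HEY1 keep their place, HES1 moves from 1.01 to 1.71, and HES4 moves from -0.74 to -0.09.

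To compare responses within the family without the scaling of libraries, the log2 ratio of the counts of 2 genes (each plus 0.5) was taken in each library for 6 pairs. A change in such a ratio shows that 2 genes changed unequally, and says nothing of their relative levels. The log2 ratio of HES1 to HES4 was -0.23, -0.20, -0.89, -0.16 and -0.05 in DMSO replicates 1 to 5 and 1.52, 1.31, 1.39, 1.57 and 1.71 in SFN replicates 1 to 5. The groups were widely separated, and DMSO replicate 1 lay within the range of the other DMSO replicates, although both genes were displaced in that library. The mean rose from -0.30 ± 0.33 to 1.5 ± 0.15, a difference of 1.81 (exact two-sided permutation p = 0.0079, adjusted over the 6 pairs 0.016). The difference was 1.83 without DMSO replicate 1.

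The ratio of NOTCH1 to NOTCH3 differed by -1.95 between SFN and DMSO (adjusted exact permutation p = 0.016), with no overlap between the groups. That of NOTCH2 to NOTCH3 differed by -1.77 (adjusted exact permutation p = 0.036), and DMSO replicate 1, at 8.16, lay within the SFN range of 7.48 to 8.55. NOTCH3 thus changed unequally to both other receptors, with few counts behind its values. NOTCH1 against NOTCH2 differed by -0.19 (adjusted exact permutation p = 0.58) and by 0.02 without DMSO replicate 1. HES1 against HEY1 differed by -0.61 (adjusted exact permutation p = 0.58) and by 0.04 without DMSO replicate 1. For these 2 pairs an unequal change was not detected, and the direction turned with 1 library. The ratio of HEY1 to HEYL differed by 1.85 (adjusted exact permutation p = 0.016), but with HEYL at 0 in 9 libraries it holds the change of HEY1 and the added 0.5 alone.

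The other genes of the pathway were taken from 10 lists by role, with 71 genes in all, of which 62 were in the count table and 50 were tested. Of these 50, 3 were significantly higher with SFN and 10 were lower, beside 9.07% and 13.9% of all tested genes. Among the 10, LFNG and MAML3 passed the low-count filter through the DMSO libraries alone. The median log2 fold change of the 50 was -0.08, against -0.03 over all tested genes. Without DMSO replicate 1, 9 were higher and 17 lower of 51 tested, beside 22.5% and 23.5% of all genes in that fit.

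Upstream of the receptors, the other ligands (JAG2, DLL1, DLL3, DLL4 and DLK2) had at most 21 counts in any library, and none was tested over all libraries. Of 3 tested ubiquitin ligases that act on ligands, NEURL1B, which promotes ligand endocytosis, fell from 16.0 ± 3.37 to 8.77 ± 1.56 CPM (log2 fold change -0.87, SE 0.18, adjusted p = 0.0046 by edgeR, and -1.0 without DMSO replicate 1). DMSO replicate 1, at 10.3 CPM, was the only DMSO library within the SFN range of NEURL1B, which reached 10.4 CPM. Of 9 genes of receptor cleavage, 1 was higher and none was lower, beside 9.07% and 13.9% of all tested genes, and the median log2 fold change was 0.27. With DMSO replicate 1 left out, 4 of the 9 were higher and none was lower, beside 22.5% and 23.5%. The one that rose over all libraries was ADAM17, a membrane protease that sheds many surface proteins, from 67.6 ± 13.1 to 95.4 ± 12 CPM (log2 fold change 0.50, SE 0.15, adjusted p = 0.037 by edgeR, and 0.38 without DMSO replicate 1). Its groups did not overlap, but its call was lost when any 1 of 7 libraries was left out. ADAM10, the protease best known for ligand-dependent Notch cleavage, had a log2 fold change of 0.27 (adjusted p = 0.22 by edgeR), and of 0.17 without DMSO replicate 1.

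Among 4 tested genes of receptor glycosylation, LFNG, a Fringe glycosyltransferase that modifies Notch so that it responds differently to Delta and Jagged ligands, was read mainly in DMSO. LFNG had 62, 35, 44, 25 and 41 counts in DMSO replicates 1 to 5 and 0, 6, 1, 7 and 0 counts in SFN replicates 1 to 5. No SFN library reached the lowest DMSO library, and LFNG passed the low-count filter through the DMSO libraries alone. The fitted log2 fold change was -3.50 (SE 0.66) over all libraries and -3.27 without DMSO replicate 1. The estimate over all libraries rests on 14 SFN counts in all, with 2 SFN libraries at 0. DESeq2 gave -3.52 and limma-voom gave -4.13. No p is given because the filter kept LFNG only through the group where it was high. LFNG was the only gene of this list called over all libraries or without DMSO replicate 1, and its call is not counted as support. Among the ligand ligases, 1 was lower and none was higher in both fits. The shares of all tested genes that were lower were 13.9% over all libraries and 23.5% without DMSO replicate 1.

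Of 7 tested genes of receptor turnover, 4 fell and none rose, beside 13.9% of all tested genes that were lower, and the median log2 fold change of the 7 was -0.50. The same counts were found without DMSO replicate 1, beside 23.5% lower in that fit. The genes that fell over all libraries were NUMBL, a relative of the Notch inhibitor NUMB (log2 fold change -0.84, SE 0.15, adjusted p = 0.0016 by edgeR), the Deltex ubiquitin ligase DTX2 (-1.13, SE 0.23, adjusted p = 0.0036 by edgeR), its relative DTX3 (-0.50, SE 0.13, adjusted p = 0.018 by edgeR) and FBXW7 (-0.68, SE 0.20, adjusted p = 0.032 by edgeR). FBXW7 is the ubiquitin ligase subunit that marks the Notch intracellular domain for degradation. The groups did not overlap for any of the 4 genes, which held for 11.1% of all tested genes in this direction. Leaving out DMSO replicate 1 gave log2 fold changes of -0.95 for NUMBL, -1.05 for DTX2, -0.52 for DTX3 and -0.43 for FBXW7, whose value thus moved by over 1.5 times. The call of FBXW7 was lost when any 1 of 5 other libraries was left out, and that of DTX3 without SFN replicate 3 (log2 fold change -0.44, adjusted p = 0.050 by edgeR). Both calls were also lost with the replicate number added to the model, and by limma-voom with quantile normalization.

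In the nuclear activator complex, 2 of 8 genes were called lower and none higher, beside 13.9% of all tested genes that were lower. These were the Mastermind-like coactivators MAML2 and MAML3. MAML3 passed the low-count filter only through the DMSO libraries, where it was high, and its call is not counted as support. When DMSO replicate 1 was left out, 3 were called lower (MAML1, MAML2 and again MAML3), beside 23.5%. The RBPJ cofactor SNW1 alone was higher there (log2 fold change 0.46), beside 22.5%. MAML2 had 8.66, 25.3, 28.1, 28.4 and 32.2 CPM in DMSO replicates 1 to 5 and 4.29, 2.33, 4.39, 6.75 and 8.61 CPM in SFN replicates 1 to 5. DMSO replicate 1 lay just above the highest SFN library and far below the other DMSO replicates. The log2 fold change of MAML2 was -2.21 (SE 0.38, adjusted p = 0.0013 by edgeR), a 4.63-fold decrease, and -2.42 without DMSO replicate 1. MAML3 was low, at 12 to 40 counts in DMSO and 4 to 15 in SFN, with a log2 fold change of -1.29 (SE 0.40) and of -1.48 without DMSO replicate 1, and its call was lost when any 1 of 8 libraries was left out. RBPJ itself had a log2 fold change of -0.22 (adjusted p = 0.50 by edgeR), and of 0.04 without DMSO replicate 1 (adjusted p = 0.77 by edgeR). MAML1 had one of -0.21 over all libraries (adjusted p = 0.32 by edgeR). Without DMSO replicate 1 MAML1 was called lower, with a log2 fold change of -0.32 (adjusted p = 0.0074 by edgeR).

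Of 14 corepressor genes, 2 fell and none rose, a share close to the 13.9% of all tested genes that were lower. In the fit without DMSO replicate 1, 7 were lower and 2 higher, beside 23.5% and 22.5%. TLE1, a Groucho-related corepressor recruited by HES proteins, had 45, 57.3, 66.0, 56.1 and 49.7 CPM in DMSO replicates 1 to 5 and 26.3, 23.2, 26.2, 26.5 and 27.9 CPM in SFN replicates 1 to 5. The SFN libraries were close together and all below the DMSO libraries (log2 fold change -1.07, SE 0.12, adjusted p = 6.9e-05 by edgeR, and -1.14 without DMSO replicate 1). L3MBTL3, which binds RBPJ in the absence of the Notch intracellular domain, had a log2 fold change of -0.71 (SE 0.18, adjusted p = 0.014 by edgeR), and of -0.75 without DMSO replicate 1.

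Of the other HES and HEY genes only HES6 was tested, with a log2 fold change of -0.23 (adjusted p = 0.68 by edgeR). Without DMSO replicate 1 it was 0.10 (adjusted p = 0.78 by edgeR). HES6 had 7.54 CPM in that library and 2.64 to 3.49 CPM in the other DMSO replicates. HES7 had at most 17 counts and HEY2 at most 4 in any library. Among 3 tested further target genes of Notch, 2 rose, beside 9.07% of all tested genes, and both are also targets of many other pathways. MYC, a transcription factor of cell growth, rose from 46.4 ± 3.07 to 102 ± 13.6 CPM (log2 fold change 1.13, SE 0.11, adjusted p = 3.1e-05 by edgeR, and 1.10 without DMSO replicate 1), with no overlap. Without that library CCND1, which encodes cyclin D1, was called lower (log2 fold change -0.30). CDKN1A, which encodes the cell cycle inhibitor p21, rose by 0.46 on the log2 scale (SE 0.13, adjusted p = 0.021 by edgeR, and 0.43 without DMSO replicate 1), its groups overlapped, and its call was lost without DMSO replicate 2, DMSO replicate 4 or SFN replicate 1 (log2 fold changes of 0.44, 0.41 and 0.45). NRARP, a feedback inhibitor and a direct target of Notch, had 2 to 19 counts in DMSO and 0 to 6 in SFN and was not tested.

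For JAG1 and HEY1, the genes with the most similar profiles over the 10 libraries were found by the root mean square difference of log2 CPM, each gene taken relative to its own DMSO mean, among 10039 genes with a mean of at least 5 CPM. Those nearest to JAG1 were MOB3A (0.105), RGL1 (0.122) and FAM222B (0.127), against a median of 0.728 over all candidates. Those nearest to HEY1 were TNFRSF10D (0.287), PCF11 (0.331) and CEBPG (0.342), against a median of 1.30. The nearest genes to JAG1 had log2 fold changes of -0.99, -0.77 and -0.92, and those nearest to HEY1 had 1.48, 1.76 and 1.63. HEY1 matched its neighbours less closely than JAG1 did, and its counts were lower. This likeness is a description over libraries that share treatment, and it was not tested.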

How the data were processed

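RNA from RPE-1 cells (5 SFN and 5 DMSO samples, 4 h) was made into Lexogen QuantSeq 3′ libraries. The authors deposited unnormalized read counts for each Ensembl gene, 1 column per sample. The study's methods name the Bluebee pipeline, and the submitters' processing notes name FastQC, STAR, featureCounts, edgeR and GRCh38, without versions. Use of strand, of molecular identifiers and of reads with several matches is not given in the sources used here. Groups were taken from the treatment labels.

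Counts were analysed with edgeR 4.0.16 in R 4.3.3, with filterByExpr (minimum count 10), TMM scaling, glmQLFit and glmQLFTest, and Benjamini-Hochberg adjustment over 13378 genes. The filter is set by CPM in 5 libraries, so low genes could pass through 1 group alone. The study's methods name edgeR and limma with dream weights, and state that dependencies from repeated measures were taken into account. They do not say which samples these link, and the dream model was not run. Ratios were compared by exact permutation over 252 splits. Positions are from GENCODE 44 and promoters from RefSeq, both GRCh38. The scripts were tested on simulated data. Total counts of 12375860 to 20666692 per sample limit the precision of genes under about 1 CPM, and floors cover counting error only.

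The 8 genes and the lists were chosen with earlier results of these data known, although the lists follow the pathway's textbook roles. All 8 genes are named. From each list all genes past the threshold are named where they are 6 or fewer, otherwise the 3 largest and the 3 smallest changes. The genes of most similar profile are the 3 nearest to each of the 8 past the threshold. Other genes with values (NOTCH2NLA, ADAM10, RBPJ, MAML1, SNW1, CCND1, HES6, NRARP and the lists' untested genes) are named for their role, and were chosen after their values were seen. Alternatives covered scaling, the test (DESeq2 1.42.0, limma 3.58.1), the filter, the fold limit, a replicate block, the pseudocount of ratios and leaving out each library. Sample quality weights in limma-voom were added after seeing the data. Replicates within a group differed by more than sampling noise in all pairs.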

Additional observations from a re-analysis of the deposited data

Results flagged for a closer look

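In 50 groups of 5 libraries, formed by the 6 tested genes and NOTCH3, the pathway genes past the threshold and 5 of the ratios, 1 library stood apart in 12 groups by Dixon's ratio of its gap to the range of the group (limit 0.71 for 5 samples). For 50 independent groups chance gives about 2. These groups share libraries, the ratios reuse genes, and the pathway genes were picked by a test, so this is no test against chance. DMSO replicate 1 was the library that stood apart in 9 of the 12. Among the 8 genes, DMSO replicate 1 stood apart for NOTCH2 (ratio of gap to range 0.92, 97.8 CPM against 316 to 335), HES1 (0.888, 26.2 CPM against 4.98 to 7.35) and HES4 (0.881, 30.6 CPM against 6.33 to 9.22). NOTCH2 was low in that library and both HES genes were high. SFN replicate 5 stood apart for NOTCH2 (0.72, 352 CPM against 192 to 237).

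Among the pathway genes, DMSO replicate 1 stood apart for ADAM17 (0.759, 44.7 CPM against 68.9 to 76.5) and FBXW7 (0.764, 37.1 CPM against 17.5 to 22.1), and SFN replicate 5 for NUMBL (0.768, 8.97 CPM against 7.29 to 7.68). The SFN and DMSO groups of ADAM17 and of NUMBL did not overlap with these libraries included.

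Among the log2 ratios, DMSO replicate 1 stood apart for NOTCH1 to NOTCH2 (0.811), NOTCH1 to NOTCH3 (0.752), NOTCH2 to NOTCH3 (0.856) and HES1 to HEY1 (0.837). For HES1 to HES4 it was DMSO replicate 3 that stood apart (0.795, a log2 ratio of -0.89 against -0.23 to -0.05), on the side away from the SFN libraries.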

How the results depend on the processing

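JAG1 (log2 fold change between -0.95 and -0.79 when 1 library was left out) and HEY1 (1.63 to 2.05) passed the threshold under all 21 alternatives, with p up to 0.0079. NOTCH3 had log2 fold changes of 1.71 to 1.90 in the 6 fits with 1 library left out that tested it, which it entered only through the SFN libraries where it was high, so this range says nothing of stability. HES4 (-0.93 to -0.09) passed under none of 21. HES1 passed under 6 of 21, with log2 fold changes of 1.28 by limma-voom, 1.37 with quantile normalization, 1.63 with sample quality weights, 1.27 with the replicate block and 1.26 by an exact permutation test (unadjusted p = 0.04), and 0.83 to 1.71 when 1 library was left out, where only leaving out DMSO replicate 1 passed. NOTCH1 (-0.41 to -0.21) and NOTCH2 (-0.40 to -0.10) passed only without DMSO replicate 1 and with sample quality weights (-0.45 for both). The ratios of NOTCH1 to NOTCH2 (-0.29 to 0.02) and HES1 to HEY1 (-0.85 to 0.04) changed sign without DMSO replicate 1. When 1 library was left out, the other ratios were 1.66 to 1.87 (HES1 to HES4), -2.15 to -1.87 (NOTCH1 to NOTCH3), -2.17 to -1.63 (NOTCH2 to NOTCH3) and 1.53 to 2.11 (HEY1 to HEYL).

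Genes higher numbered 1840 by DESeq2 and 3874 with sample quality weights, and 393 with the fold limit; genes lower numbered 4041 with weights and 770 with the fold limit. When 1 library was left out, 906 to 3058 were higher and 1470 to 3193 lower, both highest without DMSO replicate 1. Of the 8 genes, 2 were higher by DESeq2 and without a filter (HEY1 and NOTCH3). Both limma-voom fits, the block and the weights also gave 2 higher, but these were HEY1 and HES1. Of all 13378 genes, 1268 were higher by limma-voom, 1317 with quantile normalization, 911 with the block and 3874 with the weights. Leaving out 1 library gave 1 to 3 higher. Each count above 1 there included NOTCH3, which entered those fits only through the SFN libraries where it was high. Of the 8 genes, 3 were lower with weights, and 1 to 3 when 1 library was left out. Pathway genes higher numbered 1 by library size only, beside 819 of all 13378 genes, and 1 without a filter, beside 1135 of 28380. With weights, 16 of the 50 tested pathway genes were higher and 21 lower, beside 3874 and 4041 of all 13378 genes. Leaving out 1 library gave 1 to 9 pathway genes higher and 7 to 17 lower, beside 906 to 3058 and 1470 to 3193 of all genes. It gave 1 higher without DMSO replicate 2, DMSO replicate 4 or SFN replicate 1, and the most without DMSO replicate 1. FBXW7 and DTX3 also lost their calls with the replicate block in edgeR (adjusted p = 0.067 and 0.059). Limma-voom with quantile normalization lost both as well (adjusted p = 0.11 and 0.091). In edgeR without a filter, DTX3 (adjusted p = 0.057), ADAM17 (0.07) and CDKN1A (0.054) were not called. By library size only, edgeR did not call ADAM17 (adjusted p = 0.16) or CDKN1A (0.081). CDKN1A (adjusted p = 0.055 by edgeR) and MAML3 also lost their calls with the block. The cause of these differences was not tested.

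Equal replicate numbers showed little sign of pairing the samples (correlations of deviations 0.0394, -0.267, -0.0605, 0.0308 and 0.484), and only replicate 5 correlated best with its own number. These correlations cannot settle whether samples were paired, and the study's methods name repeated measures without saying which samples they link. With the replicate block, edgeR called 911 genes higher and 1530 lower. An exact sign-flip test over equal numbers, whose smallest p is 0.0625, left -1.95, -1.77, 1.81 and 1.85 (NOTCH1 to NOTCH3, NOTCH2 to NOTCH3, HES1 to HES4, HEY1 to HEYL) at an adjusted p of 0.094. Depth limits NOTCH3, HEY1, HEYL and LFNG, with at most 62 counts in any library.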

Other observations

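3 further Notch pathway genes had too few counts for a test over all libraries. NOTCH4, the receptor known from endothelium, had 4 to 14 counts per library in DMSO and 1 to 3 in SFN. HES7, an oscillating repressor of somite segmentation, had 6 to 17 counts in DMSO and 0 to 7 in SFN. JAG2, the other Jagged ligand, had 3 to 13 counts in DMSO and 8 to 19 in SFN. Without DMSO replicate 1 it was tested, with a log2 fold change of 1.06, and it was not called. It had reached 0.637 CPM in 3 SFN libraries and 1 DMSO library. JAG2 thus entered that fit mainly through the SFN libraries where it was high, so no p is given. These genes were picked after their values were seen, and the values are descriptions.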
